A study of Mus musculus with 3 samples.

Results

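The Notch genes described here are the 4 receptors Notch1 to Notch4, the ligands Dll1, Dll4, Jag1 and Jag2, and the effectors Rbpj and Hes1. They were chosen by name as members of the pathway, and all 10 were measured among 19938 genes. The cells were haematopoietic stem cells sorted from bone marrow of wild-type C57Bl/6 mice aged 6 to 10 weeks, and no further allele or treatment is named in the labels. The sort, called KLS SLAM, kept cells that carried c-Kit, Sca-1 and CD150 and lacked lineage markers, CD48 and CD41. The data are 3 single-colour arrays of this group, called arrays 1, 2 and 3 after their replicate numbers, so no genotype or treatment is compared. The labels do not say whether the arrays came from separate animals or pools, and spreads between arrays may therefore be technical.

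Notch signalling passes between touching cells. A Delta-like or Jagged ligand on the sending cell binds a Notch receptor, which is then cut by an ADAM protease and by gamma-secretase. The freed intracellular part enters the nucleus, where it joins the DNA-binding protein RBPJ and a Mastermind coactivator and switches on targets such as the repressor gene Hes1. In blood formation the pathway is best known for committing progenitors to the T lineage through Notch1 and for forming marginal zone B cells through Notch2, while marrow endothelial and stromal cells are known to present the ligands.

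Levels are log2 of the deposited linear intensities. Each array had a background limit, the 95th percentile of 1227 olfactory, vomeronasal and taste receptor genes, which lay at 6.30, 5.98 and 5.77 log2 on arrays 1, 2 and 3. A gene is called above the background range where all 3 arrays put it over their own limit. The limit fell from array 1 to array 3, and 39.3%, 49.1% and 55.2% of all genes passed it on arrays 1, 2 and 3. Probe sets differ in affinity, so no Notch gene is ranked against another, and a level below the limit does not show that a transcript is absent. The arrays measure RNA of a bulk population, in which fewer cells of a type and less RNA per cell cannot be told apart.

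Of the stem cell markers, all 5 measured were above the background range, namely the stem cell factor receptor gene Kit at 10.01 ± 0.23 log2, the CD150 gene Slamf1 at 6.51 ± 0.13, the protein C receptor gene Procr at 7.39 ± 0.38, and the transcription factor genes Mecom at 8.09 ± 0.22 and Hlf at 10.49 ± 0.30 (SD, n = 3). Slamf1 stood at 6.41 log2 on array 1, near its limit of 6.30. Of the genes sorted against, the CD48 gene Cd48 stood at 4.61, 5.62 and 6.14 log2 on arrays 1, 2 and 3. It was above the limit on array 3 alone. The CD41 gene Itga2b was above the range at 6.37 ± 0.14. Granulocyte markers were present, with 6 of 7 above the range and list means of 9.08, 9.81 and 9.69 log2 on arrays 1, 2 and 3. S100a8 at 12.08 ± 0.31 and S100a9 at 12.37 ± 0.38 gave higher signals than any of the stem cell markers. Ngp was at 10.26 ± 0.96, Camp at 9.11 ± 0.63, Ltf at 8.78 ± 0.56 and Mpo at 7.90 ± 0.38. Elane, at 6.18 ± 0.34, was not above the range. The share of all genes above the range was 36.8%.

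For a view of the sequence behind these genes, the 250 bases before the RefSeq transcription starts were read from build GRCm38.p6 for 9 of the 10 genes, in 11 windows. No window was available for Hes1, so its promoter was not searched for any motif. The first is an Rbpj window at chr5:53590096-53590345 on the plus strand, shown because it alone among the genes' windows, with a second overlapping Rbpj window, held the core letters bound by the RBPJ protein. Capitals mark the motif TGGGAA, searched on both strands.
Rbpj: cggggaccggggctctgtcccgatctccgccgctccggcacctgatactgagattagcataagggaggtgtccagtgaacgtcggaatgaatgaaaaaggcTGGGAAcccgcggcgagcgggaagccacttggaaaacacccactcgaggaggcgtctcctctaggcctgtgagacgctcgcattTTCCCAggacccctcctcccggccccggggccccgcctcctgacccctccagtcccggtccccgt
The matches began 149 and 65 bases before the start, the second in the reverse orientation. The overlapping Rbpj window holds this second match again, 205 bases before its own start. Across the 32851 windows of this length in the table, 21.6% held at least 1 match and 2.77% held 2 or more. The longer motif GTGGGAA, in which every match also counts as the shorter motif, was in 0 of the 11 windows and in 5.42% of all windows. The motif CACNAG, known as the N-box to which HES1 binds, was in 4 of the 11 windows, those of 4 genes, and in 36.7% of all windows. A match describes letters only and shows no binding.

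The windows of Notch2 and Notch4 are given as the receptors at the 2 ends of the receptors' CpG count. Capitals mark the CpG dinucleotides, and the windows lie on the plus strand at chr3:98013288-98013537 for Notch2 and chr17:34564045-34564294 for Notch4.
Notch2: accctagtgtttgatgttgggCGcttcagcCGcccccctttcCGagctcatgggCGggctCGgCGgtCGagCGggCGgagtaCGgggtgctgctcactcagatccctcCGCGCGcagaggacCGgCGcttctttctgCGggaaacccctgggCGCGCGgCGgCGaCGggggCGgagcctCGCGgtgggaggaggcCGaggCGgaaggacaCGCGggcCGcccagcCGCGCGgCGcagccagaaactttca
Notch4: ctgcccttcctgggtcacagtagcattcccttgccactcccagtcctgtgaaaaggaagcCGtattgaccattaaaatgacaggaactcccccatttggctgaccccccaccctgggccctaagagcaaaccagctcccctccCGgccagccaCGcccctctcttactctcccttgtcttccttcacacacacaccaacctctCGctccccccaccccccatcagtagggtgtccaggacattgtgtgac
Notch2 held 34 CpG in 250 bases, more than 96.5% of all windows. Notch4 held 4, more than 37.8% of all windows. The windows of the Notch genes had a median of 20 CpG, with 10 of 11 above the median of 6 over all windows, and the ligand gene Jag2 had the most at 54. GC content had a median of 65.6% in the Notch gene windows and 52.4% in all windows, which include those of non-coding genes.

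Of the 10 Notch genes, 3 passed the limits of all 3 arrays, namely Notch1, Notch2 and Rbpj. The background share is 36.8% of all genes, so this count is close to that of genes in general. By role, 2 of 4 receptors, 0 of 4 ligands and 1 of 2 effectors were above the range. The median of the 10 mean levels was 5.97 log2, and the median over all genes was 5.96. Without array 1 the count was 5 of 10, with Notch3 and Notch4 added, and the share of all genes was then 46.9%. With the limit at the 99th percentile of the receptor genes, 0 of the 10 were above it, beside 17.4% of all genes. In that count Rbpj is the mean of 2 probe sets, of which the brighter exceeded 99.8% to 99.9% of the receptor genes. Notch2 exceeded 98.7% of them on array 1, and 99.7% and 99.6% on arrays 2 and 3. With the dimmest probe set of each gene Rbpj was lost and the count was 2, beside 36.2% of all genes.

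**Figure D1:**
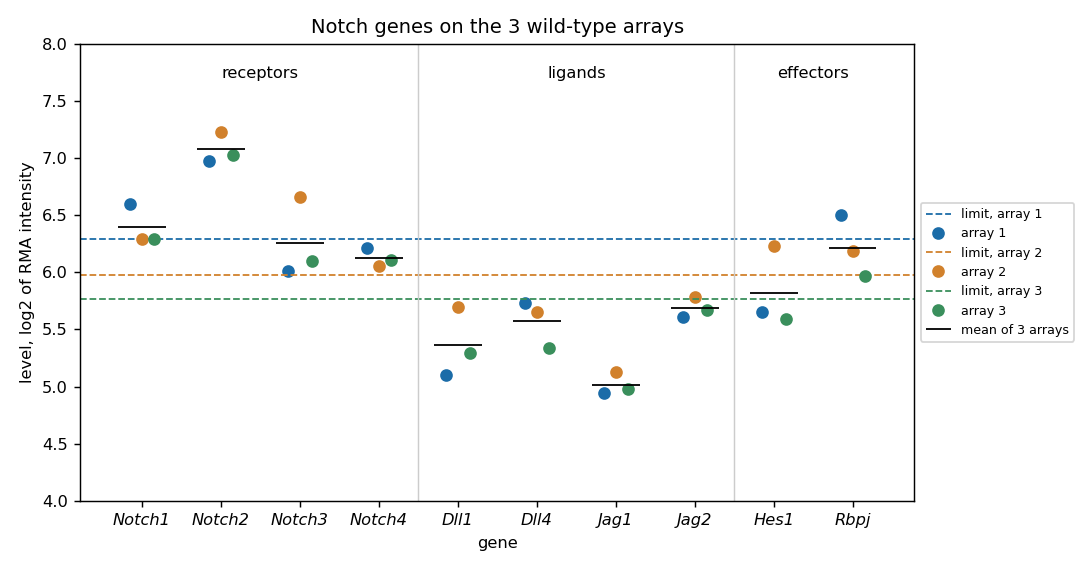
Level of each Notch gene (log2 of RMA intensity, vertical axis) on arrays 1, 2 and 3 (coloured points), with the mean of the 3 arrays (black bars) and the background limit of each array (dashed lines in the array's colour). Notch2 lies above all 3 limits on every array, and the 4 ligands lie below their array's limit on every array.

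Notch2, which in mice is needed for marginal zone B cells, was over the limit on every array. It stood at 6.98, 7.23 and 7.03 log2 on arrays 1, 2 and 3, a mean of 7.08 ± 0.13 (SD, n = 3). These values were 0.68, 1.25 and 1.26 log2 above the limits of their arrays and exceeded 98.7%, 99.7% and 99.6% of the receptor genes used as background. The 3 arrays differed by at most 1.19-fold for this gene.

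Notch1, the receptor that directs T lineage commitment, stood at 6.60, 6.29 and 6.29 log2, a mean of 6.40 ± 0.18 (SD, n = 3). It was above the limit by 0.31, 0.31 and 0.53 log2 on arrays 1, 2 and 3. Array 1 gave the highest value, and the other two were alike. The level on each array exceeded between 96.9% and 98.5% of the background receptor genes.

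Notch3, known mainly from vascular smooth muscle and pericytes, stood at 6.01, 6.66 and 6.10 log2 on arrays 1, 2 and 3. It was 0.28 log2 under the limit on array 1 (a difference of -0.28) and 0.68 and 0.33 log2 over it on arrays 2 and 3. Array 2 was the high sample, and the range over the arrays was 1.57-fold.

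Notch4, known mainly from endothelium, gave 6.22, 6.06 and 6.11 log2 and had the smallest SD of the 10 genes, 0.08 log2. It differed from the limit by -0.08 log2 on array 1 and by 0.08 and 0.34 on arrays 2 and 3. The signal itself thus hardly moved between arrays, while the limit did. Since the signal lay so near the limit, its small spread may be that of background. Probe sets that name Notch4 together with a second gene moved more and are given at the end. Pericyte and endothelial markers are given with the ligands.

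The ligands were below the limit on each of the 3 arrays. Jag1, a Jagged ligand presented by osteoblasts and marrow endothelium, stood at 4.94, 5.13 and 4.98 log2, above 68.7% to 80.6% of the background receptor genes. Jag2, the second Jagged ligand, stood at 5.61, 5.78 and 5.67 log2, and on array 3 it was within 0.10 log2 of the limit (a difference of -0.10). The SDs of the signals were 0.10 and 0.09 log2 for the Jagged genes, and since both signals lie below the limit they say nothing of how steady the transcripts were.

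The Delta-like ligand genes were likewise below every limit. Dll1, a ligand that acts in marginal zone B cell formation, stood at 5.10, 5.69 and 5.29 log2 on arrays 1, 2 and 3, with array 2 the high sample. Dll4, the thymic epithelial ligand for T lineage commitment and also an endothelial gene, stood at 5.73, 5.65 and 5.34 log2, with array 3 the low sample. Their means were 5.36 ± 0.30 and 5.57 ± 0.21 log2 (SD, n = 3).

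Since the ligands are known from niche cells, markers of those cells are set beside them. Of 9 endothelial and stromal markers, 5 were above the range, beside 36.8% of all genes. These were Pecam1 at 6.53 ± 0.45 log2, Tek at 6.37 ± 0.08, Emcn at 7.30 ± 0.56, Cxcl12 at 6.37 ± 0.32 and Col1a1 at 6.74 ± 0.18 (SD, n = 3). Pecam1, Tek and Emcn are also known from stem cells. Cdh5, Kdr, Lepr and Pdgfrb, which mark endothelium, marrow stroma and pericytes, were below the limit on every array, and were named for that once seen. Cdh5, Kdr and Pdgfrb were at 5.42 ± 0.23, 5.09 ± 0.19 and 5.72 ± 0.04 log2, and Lepr was at 4.08, 3.89 and 4.04 on arrays 1, 2 and 3. The mean of the marker list was 5.94, 5.92 and 5.98 log2 on arrays 1, 2 and 3, and its part in the ligand values was not tested.

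Hes1, a basic helix-loop-helix repressor and the best known direct target of the pathway, stood at 5.65, 6.23 and 5.59 log2 on arrays 1, 2 and 3, a mean of 5.82 ± 0.35 (SD, n = 3). It was above the limit on array 2 alone, by 0.25 log2, and differed from it by -0.65 on array 1 and -0.18 on array 3. The arrays covered a 1.56-fold range. Of the 10 genes it had the largest SD, followed closely by Notch3.

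Rbpj, the DNA-binding partner of all 4 receptors, was the only member with 2 probe sets that name it alone, and these disagreed. The brighter probe set stood at 8.10, 7.78 and 7.83 log2 on arrays 1, 2 and 3, above 99.8% to 99.9% of the background receptor genes. The dimmer probe set stood at 4.90, 4.59 and 4.10 log2, under each array's limit. The platform annotation differs too: the brighter probe set lists 6 RefSeq transcripts of Rbpj, and the dimmer lists 0 and rests on 1 other sequence record.

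The signals of the Rbpj probe sets differed by 3.20, 3.19 and 3.73 log2 on arrays 1, 2 and 3. Since the dimmer lies below the limits, only the distance of the brighter from the limits, 1.80, 1.81 and 2.06 log2, is measured above background. Among the 777 genes with 2 probe sets, the median difference between the mean signals was 0.68 log2. A probe set above the limit on every array beside one below it on every array was found for 83 of the 777, or 10.7%. The mean of the Rbpj probe sets, 6.50, 6.19 and 5.97 log2, was only 0.20, 0.21 and 0.20 log2 above the limits. By the brighter probe set the level of Rbpj was 7.90 ± 0.17 log2, and by the dimmer 4.53 ± 0.40 (SD, n = 3), which leaves 2 of the 10 genes above the range.

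**Figure D2:**
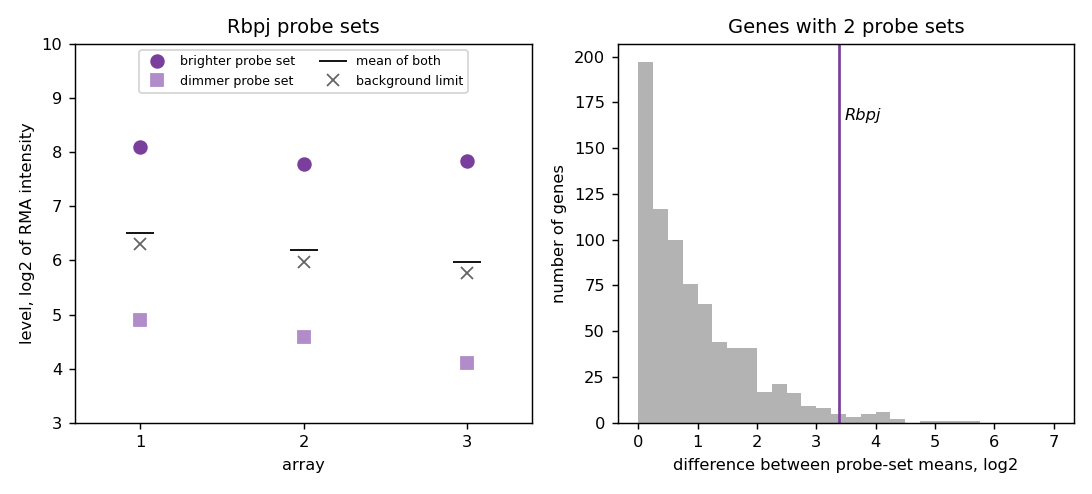
Left, level (log2 of RMA intensity) of the brighter and the dimmer Rbpj probe set on each array, with their mean (black bars) and the array's background limit (crosses). Right, number of genes by the difference between the means of their probe sets (log2), for the 777 genes with 2 probe sets, with Rbpj at 3.37 marked by the line. Differences are of signal, and that of Rbpj includes a probe set below the limit.

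Between arrays, 0 of the 10 genes varied beyond the spread of genes of their level. The test was a one-sided F test of each gene's variance against limma's variance trend, adjusted by Benjamini-Hochberg over all 19938 genes, and the adjusted p ran from 0.994 to 0.997 for the 10 genes. No Notch gene had an unadjusted p under 0.05, the lowest being 0.171 for Hes1, while 5.10% of all genes had one and 0.00% passed after adjustment in limma. With 3 arrays such a test finds only very large spreads. The SDs ran from 0.08 to 0.35 log2 with a median of 0.19, and the median SD of all genes was 0.22.

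Beside genes within 0.5 log2 of their own level, Hes1 had a larger SD than 81.6% of 6286 genes, Notch3 than 77.4% of 5972 and Dll1 than 77.0% of 5464. Notch4, Jag2, Jag1 and Notch2 lay at the other end, with larger SDs than 11.9%, 14.4%, 17.1% and 17.7% of genes of their level. Dll1, Jag1 and Jag2 were below every limit, and Hes1 passed it on array 2 alone. Notch4 differed from the limit by -0.08 and 0.08 log2 on arrays 1 and 2. The spreads of these signals may therefore be those of background. Hes1, Notch3 and Dll1 had their highest value on array 2, as did Notch2, Jag1 and Jag2. In all, 6 of the 10 genes were highest on array 2, 4 on array 1 and 0 on array 3. The shares of all genes were 38.6% for array 2, 31.6% for array 1 and 29.8% for array 3. The granulocyte list was also highest on array 2, as given above, and its part in these values was not tested.

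**Figure D3:**
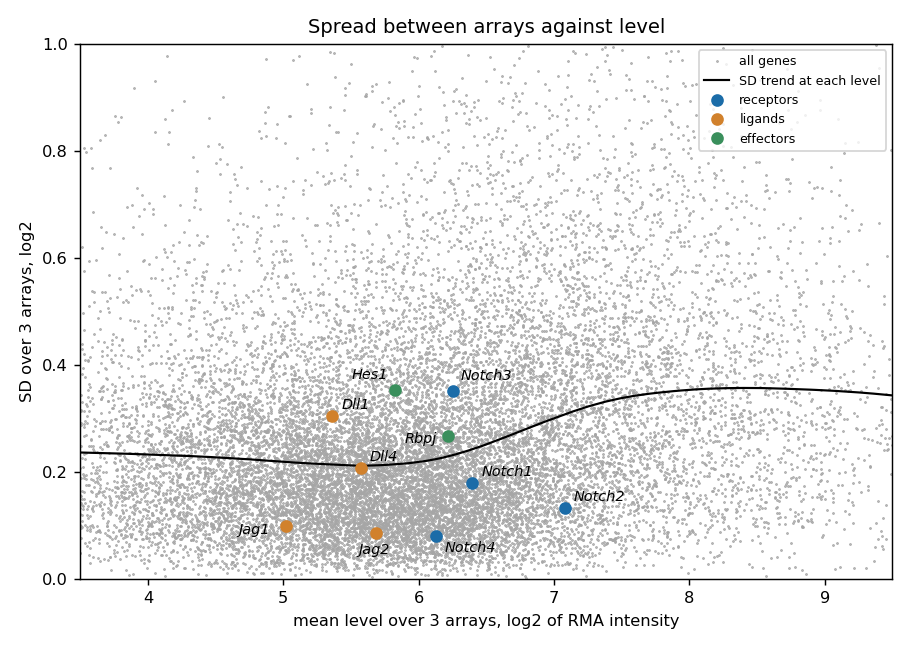
SD over the 3 arrays (log2, vertical axis) against mean level (log2 of RMA intensity) for the Notch genes (coloured points by role) and all genes (grey dots), with the fitted SD trend as a line. Hes1 and Notch3 at 0.35 and Dll1 at 0.30 lie above the trend, and Notch4, Jag1 and Jag2 lie at or below 0.10. Genes beyond the axis limits are not drawn.

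The other genes of the pathway were taken from 9 lists of 71 genes, of which 67 were measured. Of these, 36 were above the background range, or 53.7%, beside 36.8% of all genes, and the median of their means was 6.52 log2, beside 5.96 over all genes. Such genes include broadly used proteases and chromatin factors. In limma's variance test 0 of the 67 varied between arrays, the lowest adjusted p being 0.973, and 0 had an unadjusted p under 0.05.

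**Figure D4:**
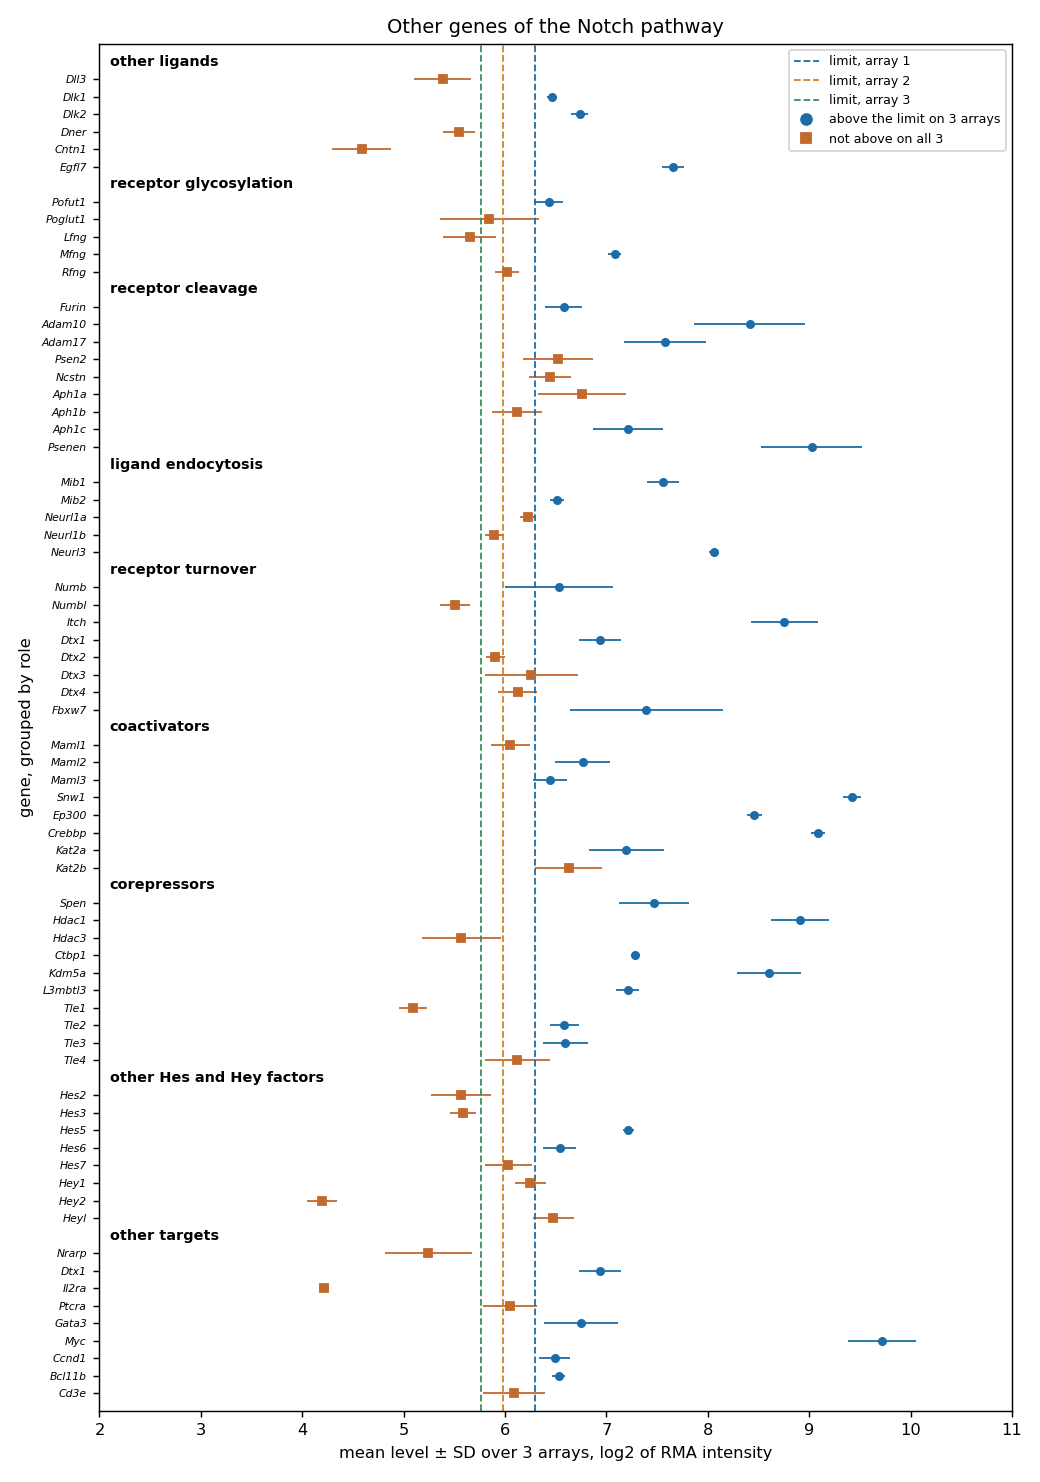
Mean level ± SD over the 3 arrays (log2 of RMA intensity, horizontal axis) of the 67 other genes of the pathway by role, with the background limit of each array as dashed lines. Circles mark the 36 genes above the limit on all 3 arrays, and squares the others. Dtx1 is drawn under both lists that hold it.

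The machinery that prepares and cuts the receptors was measured through several lists, whose counts stand beside 36.8% of all genes and were not tested. Of the cleavage list 5 of 9 were above the range: the convertase gene Furin at 6.58 ± 0.18 log2, the sheddase genes Adam10 at 8.41 ± 0.55 and Adam17 at 7.58 ± 0.41, and the gamma-secretase subunit genes Aph1c at 7.21 ± 0.35 and Psenen at 9.02 ± 0.50 (SD, n = 3). The gamma-secretase genes Psen2, Ncstn and Aph1a were at 6.52 ± 0.34, 6.44 ± 0.20 and 6.76 ± 0.44 and missed the limit on array 1 alone. Aph1b was at 6.12 ± 0.25 and passed the limit on array 3 alone. Aph1a has 2 probe sets, of which that at 6.37, 6.97 and 7.14 log2 on arrays 1, 2 and 3 passed every limit and that at 6.15, 6.94 and 6.99 missed the limit of array 1. Of the glycosylation list 2 of 5 were above it, the fucosyltransferase gene Pofut1 at 6.43 ± 0.14 and the Fringe gene Mfng at 7.08 ± 0.06. The other Fringe genes Lfng and Rfng were at 5.65 ± 0.26 and 6.02 ± 0.12, and the glucosyltransferase gene Poglut1 at 5.85 ± 0.49. Fringe enzymes extend the sugars on Notch and shift its response to Delta-like and Jagged ligands.

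Counts on the ligand side stand beside 36.8% of all genes and were not tested. Of 6 further ligand genes, 3 were above the range. These were the non-canonical Dlk1 at 6.47 ± 0.05 log2, Dlk2 at 6.74 ± 0.08 and Egfl7, an endothelial and stem cell secreted factor, at 7.65 ± 0.11 (SD, n = 3). Dll3, Dner and Cntn1 were below every limit at 5.39 ± 0.28, 5.54 ± 0.16 and 4.59 ± 0.29. Of the Mind bomb and Neuralized ubiquitin ligase genes, families known to drive ligand endocytosis, 3 of 5 were above it, Mib1 at 7.56 ± 0.16, Mib2 at 6.52 ± 0.07 and Neurl3 at 8.06 ± 0.04. Neurl1a was at 6.23 ± 0.08, and Neurl1b at 5.89 ± 0.09 over 2 probe sets that disagreed, at 6.36 ± 0.20, above the limit on all 3 arrays, and 5.43 ± 0.16, above it on 0.

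Beside 36.8% of all genes, 4 of 8 genes that turn the receptor over were above the range, a count that was not tested. The Notch antagonist gene Numb was above it at 7.10, 6.45 and 6.04 log2 on arrays 1, 2 and 3, as were the ubiquitin ligase genes Itch at 8.75 ± 0.33 and Dtx1 at 6.94 ± 0.21, and Fbxw7. Numbl was below every limit at 5.51 ± 0.15, and Dtx2, Dtx3 and Dtx4 were at 5.91 ± 0.10, 6.26 ± 0.46 and 6.12 ± 0.19. Fbxw7, whose product marks the intracellular part of Notch for degradation, stood at 6.91, 8.26 and 7.01 log2 over 2 probe sets. Its probe set with 4 RefSeq transcripts gave 6.50, 6.67 and 6.23 log2, and the other, with 0, gave 7.32, 9.85 and 7.79, so the high value of array 2 came from that second probe set.

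The nuclear partners of RBPJ formed lists of coactivators and corepressors, whose counts stand beside 36.8% of all genes and were not tested. Of 8 coactivator genes 6 were above it, including the Mastermind genes Maml2 at 6.77 ± 0.27 log2 and Maml3 at 6.44 ± 0.17, Snw1 at 9.42 ± 0.09 and the acetyltransferase genes Ep300 at 8.46 ± 0.07, Crebbp at 9.09 ± 0.07 and Kat2a at 7.19 ± 0.37 (SD, n = 3). Maml1 at 6.05 ± 0.19 and Kat2b at 6.63 ± 0.33 missed it on some array. Of 10 corepressor genes 7 were above it, among them Spen at 7.47 ± 0.35, Hdac1 at 8.91 ± 0.29 and Ctbp1 at 7.28 ± 0.02. Hdac3, Tle1 and Tle4 were not, at 5.57 ± 0.39, 5.09 ± 0.14 and 6.12 ± 0.32.

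Counts for targets of the pathway other than Hes1 stand beside 36.8% of all genes and were not tested. Of the other Hes and Hey genes, which encode repressors related to HES1, 2 of 8 were above the range, Hes5 at 7.21 ± 0.05 log2 and Hes6 at 6.54 ± 0.16 (SD, n = 3). HES6 is known to oppose HES1 rather than to act as a Notch target. Hes2, Hes3 and Hes7 were at 5.57 ± 0.30, 5.59 ± 0.13 and 6.03 ± 0.23. Of the Hey genes, direct Notch targets in vessels and heart, Hey1 and Heyl were at 6.25 ± 0.16 and 6.48 ± 0.21 and missed the limit on array 1 alone, and Hey2 was below every limit at 4.20 ± 0.15. Of 9 further targets 5 were above it, namely Dtx1, Gata3 at 6.75 ± 0.37, Myc at 9.72 ± 0.34, Ccnd1 at 6.49 ± 0.15 and Bcl11b at 6.53 ± 0.06. Nrarp, a feedback inhibitor induced by Notch, was at 5.22, 4.83 and 5.68 log2 on arrays 1, 2 and 3, below every limit. Il2ra, the interleukin-2 receptor alpha gene of early thymocytes, was below every limit at 4.21 ± 0.05, and Ptcra, the pre-T cell receptor alpha gene, was at 6.05 ± 0.26 and Cd3e at 6.09 ± 0.31.

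Markers of blood lineages are given beside these targets, several of which Notch is known to induce in the thymus. Of 7 T lineage markers 1 was above the range, the transcription factor gene Bcl11b, and the list means were 5.65, 5.60 and 5.51 log2 on arrays 1, 2 and 3. Of 5 B lineage markers 0 were above it, with list means of 5.02, 4.88 and 4.92. Of 5 megakaryocyte markers 4 were above it, Pf4 at 7.23 ± 0.45 log2, Itga2b, Gp9 at 6.43 ± 0.32 and Vwf at 6.42 ± 0.14 (SD, n = 3), with list means of 6.55, 6.31 and 6.74. On array 1 Itga2b, Gp9 and Vwf stood at 6.51, 6.39 and 6.58 log2, near its limit of 6.30. Genes of other lists were as near on array 1, among them Hes6, Ccnd1, Tek, Bcl11b, Cxcl12 and Dlk1, at 6.40 to 6.49 log2. The counts of the T, B and megakaryocyte lists stand beside 36.8% of all genes and were not tested. The part of any of these cells in the Notch gene values was not tested.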

How the data were processed

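Per the labels' protocols, column-prepared RNA was amplified before labelling with biotin. Per the submitters' processing notes, the deposited intensity values come from Affymetrix Expression Console and its RMA method; their versions, the genome build and which arrays were normalised as a set are not stated in the labels. They were linear (2.82 to 18384), and log2 was taken with no pseudocount. Of 35554 probe sets, 21789 named 1 gene in the platform annotation, 1621 named several and 12144 were not listed. Log2 values of probe sets naming 1 gene were averaged per gene. The number of arrays, 3, limits the precision.

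Levels were set against a limit from receptor genes and described without a test. Variation was tested with limma 3.58.1 (R 4.3.3), a one-sided F test on 2 degrees of freedom against the robust variance trend with 4.34 prior degrees of freedom, adjusted over 19938 genes at a threshold of 0.05. The F test was tried on data simulated from its own fitted trend, with some genes given much larger spreads. Such data follow the assumptions of the test, and moderate spreads were not tried. Promoter windows came from RefSeq, GRCm38.p6. All 10 Notch genes are named. Of the other lists the first 4 measured genes are named, with the rarer side of the limit where it held 5 or fewer; of the markers, the stem cell genes, the genes sorted against and, in other lists, genes above the limit where these were 5 or fewer. Others were named after their values were seen. Members and lists were chosen with earlier results of these data known. Alternatives were other limits, probe set choices, normalisations and each array left out.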

Additional observations from a re-analysis of the deposited data

How the results depend on the processing

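The count of Notch genes above the background range, 3 of 10, was 3 with quantile normalization, with the brightest probe set of each gene and with olfactory receptor genes alone, and 2 with the dimmest probe set, an alternative chosen after seeing the data. It was 0 at the 99th percentile limit (17.4% of all genes), 5 at the 90th (50.6%) and 5 when the mean over arrays was set against the mean limit (48.3%). Leaving out each array gave 3 to 5, the 5 without array 1. For the other pathway genes the count of 36 of 67 was 19 at the 99th percentile, 36 to 48 when each array was left out and 35 to 52 under the remaining alternatives. A higher or lower limit changes a count by construction, and for array 1, whose limit was the highest, the cause was not tested. The level of Rbpj was 7.90 by its brightest probe set, against 6.22 by the mean of both, and quantile normalization moved no Notch gene's mean by over 1 SD. Leaving out arrays, median centring and, for genes with 1 probe set, the choice of probe set could not move a mean that far. The count of Notch genes that varied between arrays was 0 under the 7 alternatives, of which the restriction to genes above the background range tested 3 of the 10 and the others all 10, with the lowest unadjusted p from 0.0968 to 0.210. No paired analysis was possible because all arrays belong to 1 group. Without detection calls, no level near the limit can be told from background.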

Other observations

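Beside its own probe set, Notch4 is named together with Sympk, a gene of RNA 3' end processing, by 6 probe sets that were left out of all values above. These stood at 6.45 to 7.20 log2 on array 1, 4.99 to 6.36 on array 2 and 6.41 to 6.74 on array 3. All 6 were lowest on array 2 and 2 of the 6 were above the limit on every array, while the probe set that names Notch4 alone stood at 6.22, 6.06 and 6.11 log2. Another 2 of the 6 held identical values on every array, so the 6 are not all separate measurements.

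The pair of Rbpj probe sets belongs to 151 genes with 2 probe sets of which 1 lists a RefSeq transcript and the other does not. In 103 of these, or 68.2%, the probe set with the RefSeq transcript was the brighter. Over all 151, the median of its level minus that of the other probe set, with sign, was 0.66 log2. Fbxw7 is among the exceptions, as given above.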
